A study of Mus musculus with 24 samples.

Results

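The complement and acute phase genes of the mouse liver are described here as 39 genes, picked by symbol out of the 23411 genes of a count table. They are components and regulators of the complement cascade and plasma proteins whose synthesis changes during inflammation. 38 of the 39 had enough reads to be tested. Cfd, the factor D protease of the alternative pathway, did not.

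Poly(A) RNA was sequenced from livers of 24 male mice in 8 groups of 3. α7HMZ mice carry an exon swap in Hnf4a and make P2-HNF4α only, and WT mice have the normal gene. The allele is present in the germline, so it is not limited to hepatocytes. All mice had the background mixed 129/Sv plus C57BL/6 and were 16 to 20 weeks of age. Groups of each genotype, fed ad libitum, were taken at 10:30, 13:30 and 20:30 (ZT 3.5, 6.5 and 13.5, with lights on at 7:00), and a further group of each was taken at 10:30 after 12 h without food.

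HNF4α is a nuclear receptor that maintains hepatocyte gene expression, and the alternative promoters P1 and P2 of its gene give proteins with different N termini. Complement is a cascade of plasma proteases made mostly by hepatocytes. C1q starts its classical pathway, mannose-binding lectins its lectin pathway, and all routes meet at C3 and end in the membrane attack complex. Hepatocytes raise acute phase genes in response to interleukin 6, through STAT3, and interleukin 1, through NF-κB, with C/EBP factors acting at many of their promoters.

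Levels are CPM, counts of a gene scaled to the TMM-corrected library total. Totals per library were 8545959 to 28445590 counts. The ribosomal precursor Rn45s took 50.8% of counts in α7HMZ 10:30 replicate 1, 3.76% in α7HMZ 20:30 replicate 3 and at most 0.405% in each of the others. The fed 10:30 groups and the fasted WT group were run on 1 flow cell and the other groups on another. Hnf4a, counted over the whole gene and so no check of the swap, averaged 908.2 to 1134 CPM in the fed α7HMZ groups and 717.1 to 1041 CPM in the fed WT groups. α7HMZ 20:30 replicate 1 and fasted α7HMZ replicate 3 stood apart from their groups in inducible genes and are described below. Reads of similar copies (Saa1 and Saa2, the Orm genes, C4b and C4a) may have been split or dropped in counting, so the separate levels of these genes are uncertain. The kit did not mark strand, so antisense reads cannot be told apart.

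Fed α7HMZ livers had less mRNA of 19 of the 38 members and more of 4 in the average over the 3 times (edgeR quasi-likelihood test, adjusted p under 0.05). Over all 13334 genes tested, 13.2% were lower and 13.3% higher. The median log2 fold change of the members was -0.251, against 0.027 over all genes. With a correction for GC content and full quantile scaling, steps that the study's own normalization also used, 12 members were lower and 7 higher. That compares with 1576 lower and 2123 higher of all genes, and the members' median was -0.117, against 0.025. Cfb, Mbl1, Serping1, Hpx and Serpina3n were then no longer called, and C1ra and Hc changed sign without a call (adjusted p = 0.83 and 0.91). Cfi, Itih4 and Cp changed sign and were called higher (log2 fold change 0.26, 0.303 and 0.261, adjusted p = 0.0074, 0.017 and 0.046).

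Hepatocyte markers (8 genes) were above 0 in every library. Their summed level was 101500 to 119400 CPM in α7HMZ livers at 10:30, against 124400 to 154100 CPM in WT livers. It was 83460 to 95510 CPM in α7HMZ livers, against 93740 to 110100 CPM in WT livers at 13:30, and 104100 to 127600 CPM in α7HMZ livers, against 132800 to 160800 CPM in WT livers at 20:30. The sums were lower in α7HMZ at 10:30 and 20:30 and overlapped at 13:30, and 5 of the 7 tested markers were lower in the fed average. Most of each sum was Alb, for instance 100000 of 143600 CPM in WT 10:30 replicate 1, and Ass1 was at most 0.385 CPM. At 20:30, 1 of the 7 was called higher and 1 lower. Cps1 was then at 5120, 5280 and 4400 CPM in α7HMZ livers, against 3340, 3860 and 3250 CPM in WT livers. What part hepatocyte markers had in the members' differences was not tested.

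**Figure D1:**
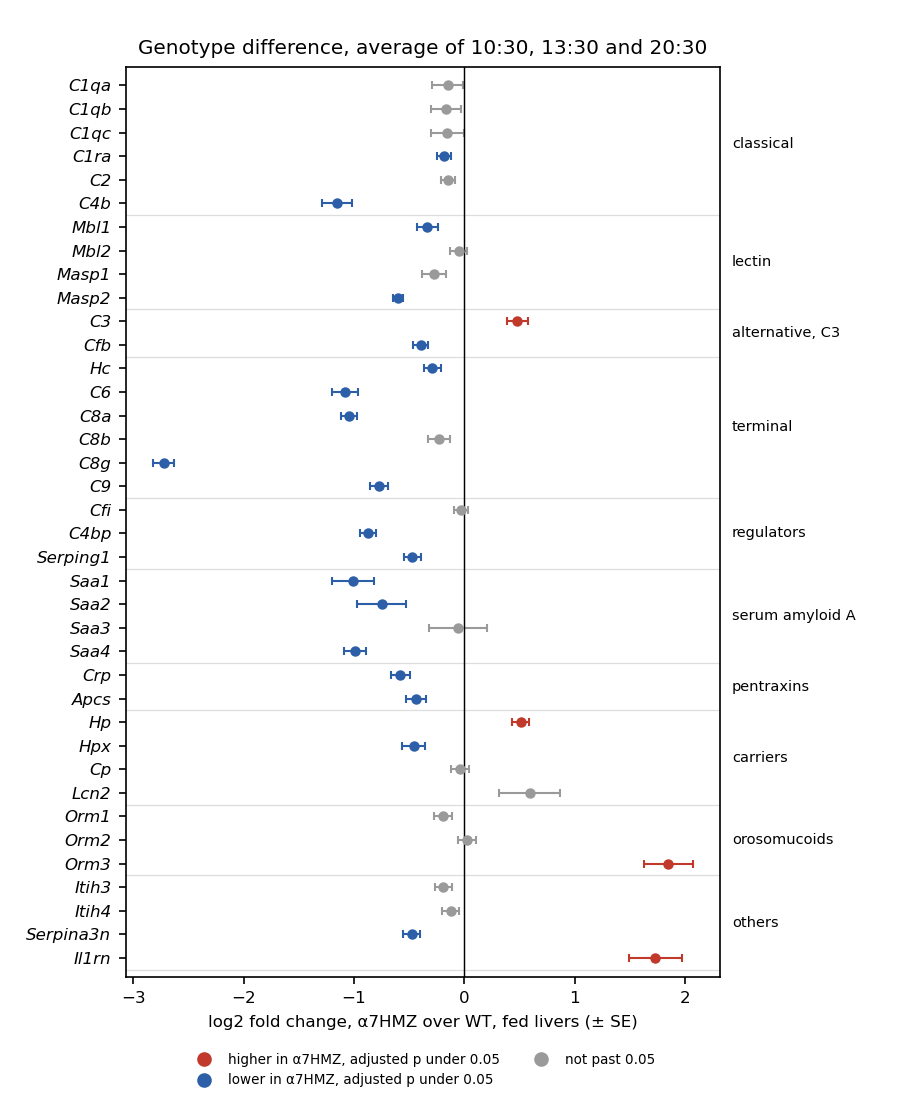
Log2 fold change (α7HMZ over WT, average of the 3 fed times) of 38 members by role; points are estimates and bars standard errors. C8g lies farthest to the left at -2.73, and Orm3 at 1.85 and Il1rn at 1.73 lie farthest to the right.

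The promoters of the 4 members with the smallest p in this comparison, all lower, and of Orm3, the higher member with the smallest p, are shown because these genes carry its clearest differences. Each line is the 250 bases before the RefSeq start site (GRCm38.p6), 5′ to 3′ on the gene's strand. Capitals mark matches on either strand to CAAAGNNCA (HNF4), TTNCNNAA (C/EBP) or TTCNNNGAA (STAT3), and no matches overlap. C8g has 2 start sites in the table, and the window shown was chosen because it holds a match. The other window, chr2:25501720-25501969, lies at the 5′ end of the gene and holds no HNF4, C/EBP or STAT3 letters.
C8g: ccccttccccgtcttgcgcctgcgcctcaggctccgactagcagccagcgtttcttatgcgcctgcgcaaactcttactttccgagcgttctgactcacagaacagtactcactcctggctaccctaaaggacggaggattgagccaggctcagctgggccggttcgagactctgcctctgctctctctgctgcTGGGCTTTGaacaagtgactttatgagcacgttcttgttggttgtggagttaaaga
C8a: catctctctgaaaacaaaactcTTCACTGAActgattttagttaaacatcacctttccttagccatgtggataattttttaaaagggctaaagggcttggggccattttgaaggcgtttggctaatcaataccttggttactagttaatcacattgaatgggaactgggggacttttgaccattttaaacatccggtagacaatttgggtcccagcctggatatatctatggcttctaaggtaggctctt
Masp2: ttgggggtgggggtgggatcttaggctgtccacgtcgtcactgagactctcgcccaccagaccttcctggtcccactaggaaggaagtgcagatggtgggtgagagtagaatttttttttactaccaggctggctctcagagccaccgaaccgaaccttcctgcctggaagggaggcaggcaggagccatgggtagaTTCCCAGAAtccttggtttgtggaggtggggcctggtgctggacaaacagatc
C4bp: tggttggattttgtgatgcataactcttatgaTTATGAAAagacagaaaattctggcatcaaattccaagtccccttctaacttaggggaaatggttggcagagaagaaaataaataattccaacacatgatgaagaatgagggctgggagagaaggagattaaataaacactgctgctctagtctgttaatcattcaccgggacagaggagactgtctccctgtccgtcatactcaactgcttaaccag
Orm3: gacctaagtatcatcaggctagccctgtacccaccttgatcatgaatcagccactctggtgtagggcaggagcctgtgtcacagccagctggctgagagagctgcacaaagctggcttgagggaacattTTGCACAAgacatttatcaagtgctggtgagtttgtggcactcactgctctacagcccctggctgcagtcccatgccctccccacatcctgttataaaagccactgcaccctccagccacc
The C8g window is chr2:25500507-25500756, minus strand, and that of C8a is chr4:104876399-104876648, minus strand. The Masp2 window is chr4:148602294-148602543, plus strand, that of C4bp is chr1:130661619-130661868, minus strand, and that of Orm3 is chr4:63355908-63356157, plus strand. The C8g match is to the HNF4 letters, read as the reverse complement, and starts 56 bases before the start site. C8a and Masp2 match the STAT3 letters, 228 and 53 bases before it, and C4bp and Orm3 the C/EBP letters, 218 and 121 bases before it. Windows were found for 30 of the 39 members, 34 windows in all. HNF4 letters occurred in 2 of the 34 (C8g and Saa3, 5.88%), against 5.49% of 32851 windows of all genes. C/EBP letters occurred in 21 (61.8%, against 36.8%) and STAT3 letters in 4 (11.8%, against 7.02%). A match describes letters, not a bound site.

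Of the 6 terminal pathway genes, 5 were lower in fed α7HMZ livers and none higher. C8g, the gamma chain of complement component 8, had 53.0, 51.3 and 73.8 CPM in α7HMZ livers at 10:30, against 352, 367 and 341 CPM in WT livers. Its 13:30 values were 49.8, 59.7 and 58.0 CPM in α7HMZ livers, against 349, 338 and 321 CPM in WT livers. Those at 20:30 were 57.5, 78.7 and 51.8 CPM in α7HMZ livers, against 440.0, 474 and 604 CPM in WT livers. All 9 fed α7HMZ values lay below all 9 fed WT values. C8g was 6.61-fold lower in α7HMZ livers in the average (log2 fold change -2.73 ± 0.10, adjusted p = 2.1e-13), with log2 fold changes of -2.57, -2.59 and -3.02 at 10:30, 13:30 and 20:30.

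C8a, the alpha chain of component 8, had 332, 452 and 386 CPM in α7HMZ livers at 10:30, against 1015, 966 and 906 CPM in WT livers. Livers taken at 13:30 had 371, 360.1 and 410.4 CPM (α7HMZ), against 696, 655 and 638 CPM (WT). Livers taken at 20:30 had 432, 445 and 319 CPM (α7HMZ), against 832, 806 and 801 CPM (WT). Again no α7HMZ value reached the WT values of any fed time (log2 fold change -1.04 ± 0.07, adjusted p = 3.9e-09). C6, which binds C5b and recruits C7, had 121, 241 and 157 CPM in α7HMZ livers at 10:30, against 428, 415 and 371 CPM in WT livers. α7HMZ livers had 189, 129.8 and 181 CPM at 13:30, against 359, 311 and 296 CPM in WT livers. The α7HMZ values at 20:30 were 237, 221 and 170.0 CPM, against 382, 495 and 439 CPM in WT livers. The 2 genotypes did not overlap (log2 fold change -1.08 ± 0.12, adjusted p = 9.9e-07). C9, which polymerises into the pore, had 199, 224 and 270.4 CPM in α7HMZ livers at 10:30, against 434, 429 and 468 CPM in WT livers. By 13:30 there were 169, 187 and 261 CPM in α7HMZ livers, against 310.0, 316 and 288 CPM in WT livers. By 20:30 there were 294, 252 and 231 CPM in α7HMZ livers, against 434, 467 and 460.2 CPM in WT livers. Within each time the α7HMZ values were below the WT values (log2 fold change -0.77 ± 0.08, adjusted p = 9.4e-07), although the call at 13:30 ended without α7HMZ 13:30 replicate 1 or 2 (adjusted p 0.0682 to 0.0743).

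Hc, which encodes C5, was lower in the average (log2 fold change -0.29 ± 0.08, adjusted p = 0.0076). Its log2 fold change was -0.68 at 10:30 (adjusted p = 0.0015), -0.13 at 13:30 (adjusted p = 0.63) and -0.07 at 20:30 (adjusted p = 0.76). C8b, the beta chain of component 8, did not pass the test (log2 fold change -0.23 ± 0.10, adjusted p = 0.11).

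**Figure D2:**
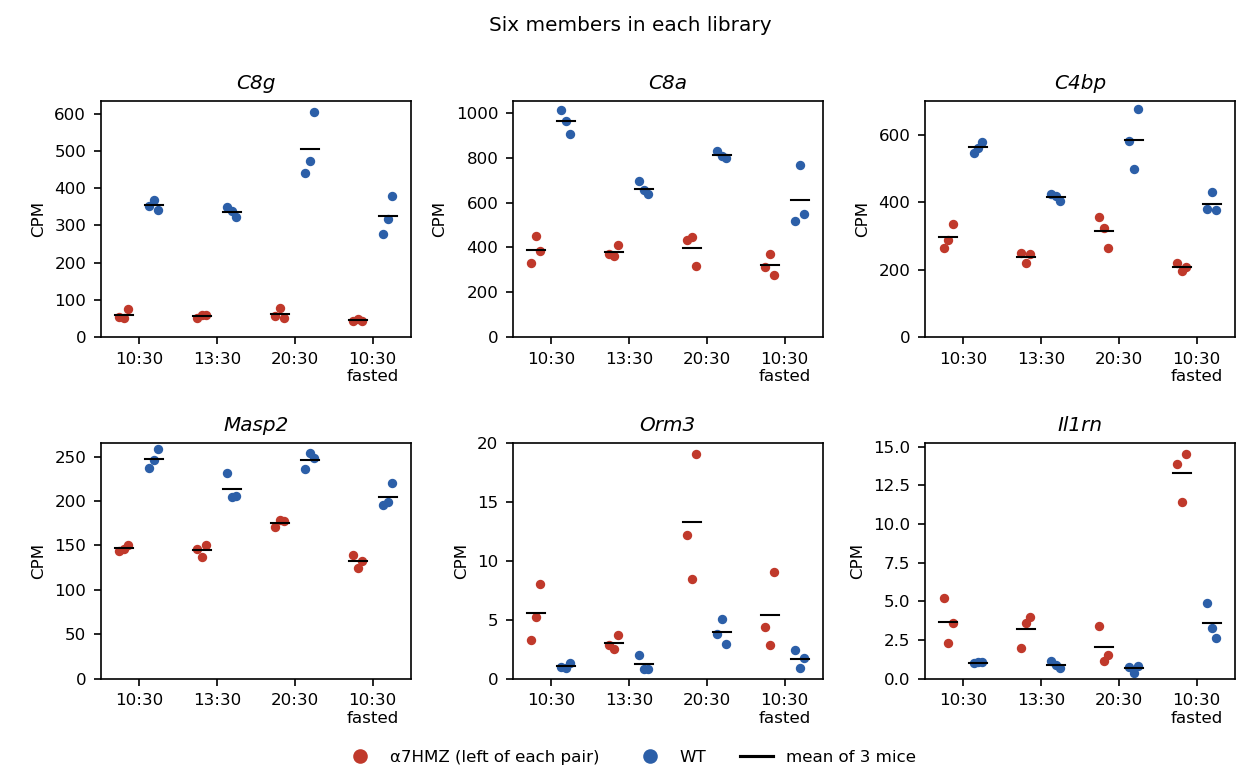
CPM of C8g, C8a, C4bp, Masp2, Orm3 and Il1rn in each library by time and feeding; points are mice, bars means of 3, α7HMZ left of WT in each pair. The α7HMZ points lie below WT at every time for the first 4 genes and above WT for Orm3 and Il1rn.

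Of the 6 classical pathway genes, 2 were lower. C4b, which encodes C4, had 348, 391 and 286 CPM in α7HMZ livers at 10:30, against 948, 1035 and 1140.1 CPM in WT livers. C4b at 13:30 measured 317, 314 and 375 CPM in α7HMZ livers, against 643, 742 and 721 CPM in WT livers. C4b at 20:30 measured 793, 325 and 351 CPM in α7HMZ livers, against 843, 873 and 815 CPM in WT livers. Groups were apart at each time, and α7HMZ 20:30 replicate 1 was closest to WT (log2 fold change -1.15 ± 0.14, adjusted p = 3.1e-06). At 20:30 the call (adjusted p = 0.025) ended without α7HMZ 20:30 replicate 2 or 3 or WT 20:30 replicate 1, 2 or 3, each in turn (adjusted p 0.0513 to 0.118). C1ra, the C1r protease of the C1 complex, was lower by a small margin (log2 fold change -0.18 ± 0.06, adjusted p = 0.035). That call ended without α7HMZ 10:30 replicate 3, α7HMZ 13:30 replicate 3, α7HMZ 20:30 replicate 2 or 3, WT 10:30 replicate 2 or 3, WT 13:30 replicate 2 or 3 or WT 20:30 replicate 3, each in turn (adjusted p 0.0524 to 0.0708).

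C1qa, C1qb and C1qc, the chains of C1q made by macrophages, had log2 fold changes of -0.15, -0.17 and -0.15 (adjusted p = 0.48, 0.41 and 0.50). C2, the protease of the C3 convertase, was at -0.15 ± 0.06 in the average (adjusted p = 0.081) and changed between times, as given with the test of genotype by time.

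In the lectin pathway 2 of 4 genes were lower. Masp2, the protease that cleaves C4 and C2, had 144, 146 and 150.2 CPM in α7HMZ livers at 10:30, against 238, 246 and 259 CPM in WT livers. Its 13:30 values were 146, 137 and 150.1 CPM in α7HMZ livers, against 232, 204 and 205 CPM in WT livers. Those at 20:30 were 171, 178 and 177 CPM in α7HMZ livers, against 237, 254 and 249 CPM in WT livers. All 9 α7HMZ values were below all 9 WT values (log2 fold change -0.60 ± 0.05, adjusted p = 1.8e-08). Mbl1, a mannose-binding lectin, was lower as well (log2 fold change -0.33 ± 0.09, adjusted p = 0.013). Its relative Mbl2 was at -0.05 ± 0.08 (adjusted p = 0.68), and Masp1, another protease bound by these lectins, at -0.28 ± 0.11 (adjusted p = 0.081).

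C3, the component at which the pathways meet, averaged 8564 ± 1626, 8188 ± 365 and 10310.0 ± 1931 CPM in α7HMZ livers at 10:30, 13:30 and 20:30, against 7429 ± 606, 5089 ± 203 and 7043 ± 846 CPM in WT livers (SD, n = 3 each). It was higher in α7HMZ livers in the fed average (log2 fold change 0.48 ± 0.09, adjusted p = 7.1e-04). Cfb, factor B of the alternative C3 convertase, averaged 688 ± 38.1, 718 ± 21.1 and 949.5 ± 168 CPM in α7HMZ livers at 10:30, 13:30 and 20:30, against 1092 ± 19.9, 809.7 ± 43.0 and 1207 ± 87.5 CPM in WT livers (SD, n = 3 each). It was lower (log2 fold change -0.39 ± 0.07, adjusted p = 1.9e-04), which the GC correction ended in the average and turned at 20:30 to 0.118 without a call (adjusted p = 0.61). Cfd was at 0 counts in 13 of 24 libraries, each of which allows up to 0.0999 to 0.264 CPM (3 counts, counting error only), and reached 108 counts (4.31 CPM) in α7HMZ 20:30 replicate 1, 20 counts in fasted WT replicate 1 and at most 3 in each of the others. The adipocyte markers Adipoq, Plin1 and Retn were at 1.08, 0.239 and 0.399 CPM in that α7HMZ liver and at most 0.148, 0.0642 and 0 CPM in any other library, and their part in the Cfd count was not tested.

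Among the regulators, C4bp, the C4b-binding protein, had 265, 289 and 336 CPM in α7HMZ livers at 10:30, against 547, 563 and 579.7 CPM in WT livers. Livers taken at 13:30 had 248, 220.1 and 247 CPM (α7HMZ), against 424, 419.6 and 405 CPM (WT). Livers taken at 20:30 had 356, 325 and 264 CPM (α7HMZ), against 581, 498 and 676 CPM (WT). No fed α7HMZ value reached the fed WT values (log2 fold change -0.87 ± 0.07, adjusted p = 3.4e-08). Serping1, the C1 inhibitor, was lower (log2 fold change -0.47 ± 0.08, adjusted p = 1.8e-04), with the opposite sign at 20:30 under the GC correction (0.0145, adjusted p = 0.97). Cfi, factor I, which cleaves C3b and C4b, was at -0.03 ± 0.06 (adjusted p = 0.77).

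Of the 4 serum amyloid A genes, apolipoproteins of HDL, 3 were lower. Saa4, the constitutive one, had 146, 195 and 206 CPM in α7HMZ livers at 10:30, against 274, 251 and 276 CPM in WT livers. α7HMZ livers had 192, 112 and 161 CPM at 13:30, against 405, 307 and 294 CPM in WT livers. The α7HMZ values at 20:30 were 183, 153 and 189 CPM, against 434, 468 and 413 CPM in WT livers. All fed α7HMZ values lay below all fed WT values (log2 fold change -0.99 ± 0.10, adjusted p = 3.9e-07). The call at 10:30 ended without α7HMZ 10:30 replicate 1 or 2 or WT 10:30 replicate 1, 2 or 3 (adjusted p 0.0581 to 0.107). Saa1, strongly inducible, had 8.11, 12.2 and 9.13 CPM in α7HMZ livers at 10:30, against 10.7, 19.6 and 21.4 CPM in WT livers. By 13:30 there were 9.8, 6.3 and 8.71 CPM in α7HMZ livers, against 23.7, 21.1 and 13.8 CPM in WT livers. By 20:30 there were 26.3, 8.41 and 12.6 CPM in α7HMZ livers, against 32.6, 35.0 and 27.2 CPM in WT livers. The ranges overlapped at 10:30 and were apart later (log2 fold change -1.01 ± 0.19, adjusted p = 6.0e-04).

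Saa2, also inducible, had 3.61, 4.87 and 4.15 CPM in α7HMZ livers at 10:30, against 4.22, 9.23 and 6.85 CPM in WT livers. Saa2 at 13:30 measured 6.44, 3.08 and 4.47 CPM in α7HMZ livers, against 9.64, 12.9 and 6.93 CPM in WT livers. Saa2 at 20:30 measured 15.5, 5.36 and 5.81 CPM in α7HMZ livers, against 13.6, 15.6 and 9.44 CPM in WT livers. Only at 13:30 were the genotypes apart (log2 fold change -0.75 ± 0.22, adjusted p = 0.017). Saa3, an inducible gene also made outside hepatocytes, had 1.23, 2.19 and 1.99 CPM in α7HMZ livers at 10:30, against 1.62, 1.48 and 1.06 CPM in WT livers. Its 13:30 values were 1.7, 1.31 and 2.29 CPM in α7HMZ livers, against 2.78, 1.7 and 1.37 CPM in WT livers. Those at 20:30 were 6.46, 1.5 and 1.75 CPM in α7HMZ livers, against 4.66, 5.17 and 3.4 CPM in WT livers. The ranges overlapped at all 3 times, and α7HMZ 20:30 replicate 1 exceeded every fed WT liver (log2 fold change -0.06 ± 0.26, adjusted p = 0.90).

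Lcn2, lipocalin 2, which binds bacterial siderophores, had 1.59, 3.25 and 2.71 CPM in α7HMZ livers at 10:30, against 1.57, 2.15 and 2.45 CPM in WT livers. Livers taken at 13:30 had 2.89, 1.42 and 2.35 CPM (α7HMZ), against 2.55, 1.96 and 2.17 CPM (WT). Livers taken at 20:30 had 16.5, 2.8 and 5.81 CPM (α7HMZ), against 3.72, 2.97 and 2.57 CPM (WT). Ranges overlapped at each time, and α7HMZ 20:30 replicate 1 was far above the other fed livers (log2 fold change 0.59 ± 0.28, adjusted p = 0.12). At 20:30 Lcn2 was called higher (log2 fold change 1.45 ± 0.45, adjusted p = 0.031). The call ended without α7HMZ 20:30 replicate 1 or WT 20:30 replicate 1, 2 or 3 (adjusted p 0.0522 to 0.376).

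Both pentraxins were lower: Crp, C-reactive protein (log2 fold change -0.58 ± 0.09, adjusted p = 7.8e-05), and Apcs, serum amyloid P component (log2 fold change -0.44 ± 0.09, adjusted p = 0.0015). Of the other carriers, Hp (haptoglobin, which binds haemoglobin) was higher in α7HMZ livers (log2 fold change 0.51 ± 0.08, adjusted p = 5.5e-05). Hpx (hemopexin, which binds haem) was lower (log2 fold change -0.46 ± 0.10, adjusted p = 0.0028), and Cp (ceruloplasmin, which carries copper) was at -0.04 ± 0.08 (adjusted p = 0.77). Serpina3n, a serine protease inhibitor, was lower (log2 fold change -0.48 ± 0.08, adjusted p = 9.2e-05). Itih3 and Itih4, heavy chains of inter-alpha-trypsin inhibitors, were at -0.19 ± 0.07 and -0.12 ± 0.08 (adjusted p = 0.07 and 0.27).

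Orm3 and Il1rn had more mRNA in α7HMZ livers at each fed time. Orm3, an orosomucoid (acid glycoprotein), had 3.26, 5.28 and 8.07 CPM in α7HMZ livers at 10:30, against 0.988, 0.862 and 1.31 CPM in WT livers. α7HMZ livers had 2.82, 2.5 and 3.67 CPM at 13:30, against 1.99, 0.832 and 0.801 CPM in WT livers. The α7HMZ values at 20:30 were 12.2, 8.47 and 19.1 CPM, against 3.77, 5.04 and 2.95 CPM in WT livers. The α7HMZ values were above the WT values at each time (log2 fold change 1.85 ± 0.22, adjusted p = 4.1e-06). At 13:30 the call ended with the GC correction (adjusted p = 0.074) and without α7HMZ 13:30 replicate 1, 2 or 3 or WT 13:30 replicate 2 or 3 (adjusted p 0.0559 to 0.144). Orm1 and Orm2, its relatives, were at -0.20 ± 0.08 and 0.02 ± 0.08 (adjusted p = 0.092 and 0.87).

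Il1rn, the antagonist of the interleukin 1 receptor, had 5.2, 2.27 and 3.59 CPM in α7HMZ livers at 10:30, against 0.988, 1.05 and 1.06 CPM in WT livers. By 13:30 there were 1.99, 3.61 and 3.96 CPM in α7HMZ livers, against 1.16, 0.865 and 0.687 CPM in WT livers. By 20:30 there were 3.43, 1.12 and 1.52 CPM in α7HMZ livers, against 0.744, 0.388 and 0.834 CPM in WT livers. Every α7HMZ value exceeded the WT values of its time (log2 fold change 1.73 ± 0.24, adjusted p = 2.2e-05). The call at 20:30 ended with the GC correction (adjusted p = 0.052) and without α7HMZ 20:30 replicate 1 or WT 20:30 replicate 1, 2 or 3 (adjusted p 0.0573 to 0.177).

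At 10:30, 18 members were lower and 2 higher (8.98% and 8.36% of all genes), with a median of -0.466, against 0.035 over all genes. At 13:30, 11 were lower and 4 higher (6.61% and 6.19%), with a median of -0.168, against 0.003. At 20:30, 16 were lower and 5 higher (10.8% and 8.29%), with a median of -0.358, against 0.023. Lower and higher counts with the GC correction were 9 and 4 at 10:30, 8 and 7 at 13:30, and 9 and 4 at 20:30. Over all genes it gave 1153 lower and 1361 higher at 10:30, 921 higher at 13:30 and 1103 lower at 20:30. All-gene counts for lower at 13:30 and higher at 20:30 are not given here. The members' medians were then -0.264, -0.028 and -0.065, against 0.038, 0.014 and 0.02 over all genes. The 20:30 count of higher members was 1 without α7HMZ 20:30 replicate 1 or WT 20:30 replicate 1 or 2, and 2 without WT 20:30 replicate 3. The lower count was 8 without replicate 3 of either genotype at 20:30.

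C4b, C6, C8a, C8g, C9, C4bp, Masp2, Saa4, Crp and Serpina3n were lower at each of the 3 fed times, 10 in all. The share of all genes called lower at all 3 times was not counted, so this number has no background beside it. For C6, C8a, C8g, C4bp and Masp2 neither leaving out a single library nor the GC correction ended a call at any of the 3 times. The GC correction ended the call at 1 or more times for the other 5 (C4b at 20:30, C9 at 13:30, Saa4 at 10:30, Crp at 10:30 and 13:30, and Serpina3n at each). The Crp call ended without any 1 of 13 libraries at 10:30 (adjusted p 0.0501 to 0.152) and of 4 at 13:30 (0.0582 to 0.151). That of Serpina3n ended without any 1 of 15 libraries at 13:30 (adjusted p 0.0503 to 0.192) and of 4 at 20:30 (0.0561 to 0.0925).

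The evening livers could be set against the 13:30 livers within 1 flow cell. In α7HMZ livers 8 of 38 members were higher at 20:30 and 0 lower, against 3.16% and 2.05% of all genes, with a median log2 fold change of 0.331, against 0.006. In WT livers 21 were higher and 1 was lower, against 11.6% and 9.97%, with a median of 0.524, against 0.016. The GC correction left 5 higher in α7HMZ and 11 in WT livers, beside 427 and 1325 of all genes, with member medians of 0.197 and 0.277. The α7HMZ count was 3 without α7HMZ 20:30 replicate 1 or 13:30 replicate 2, 4 without 13:30 replicate 1 and 13 without 20:30 replicate 3. The hepatocyte marker sums given above were also higher at 20:30 in both genotypes. Bile duct (cholangiocyte) markers summed to 71.41 to 92.5 CPM in α7HMZ livers at 20:30, against 49.48 to 65.6 CPM at 13:30, with 3 of 6 tested called higher. In WT livers they summed to 41.8 to 71.64 CPM at 20:30, against 36.75 to 41.24 CPM at 13:30, with 2 of 6 tested called higher. Sinusoidal endothelial markers summed to 163.8 to 300.6 CPM in α7HMZ livers at 20:30, against 309.2 to 324.9 CPM at 13:30, with 3 of 8 called lower, and in WT livers 2 were called lower and 1 higher. The bile duct gene Krt19 was at 14.3, 2.12 and 12.6 CPM in α7HMZ and 1.04, 18.5 and 4.3 CPM in WT livers at 20:30, and the pancreatic gene Ctrb1 at 1.87, 0 and 3.33 CPM in α7HMZ and 0, 5.04 and 0.321 CPM in WT livers. The 4 libraries highest in Rn45s, Krt19 or Ctrb1 were α7HMZ 10:30 replicate 1, α7HMZ 20:30 replicates 1 and 3 and WT 20:30 replicate 2. Leaving them out left 1 α7HMZ liver at 20:30, so counts from that fit are not given. The part of these cells in the counts was not tested.

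Haptoglobin (Hp) had in α7HMZ livers 5304, 4258 and 3685 CPM at 20:30, against 2970.1, 2679 and 3164 CPM at 13:30 (log2 fold change 0.59 ± 0.13, adjusted p = 0.015). In WT livers Hp had 3178, 3576 and 3376 CPM at 20:30, against 1672, 1791 and 1562 CPM at 13:30 (log2 fold change 1.01 ± 0.13, adjusted p = 1.6e-04). All evening values exceeded the 13:30 values in both genotypes. Hemopexin (Hpx) had in α7HMZ livers 4554, 3289 and 2472 CPM at 20:30, against 1981, 2049.9 and 2402 CPM at 13:30 (log2 fold change 0.68 ± 0.18, adjusted p = 0.036). In WT livers Hpx had 5133, 4931 and 6453 CPM at 20:30, against 2382, 2542 and 2372 CPM at 13:30 (log2 fold change 1.18 ± 0.18, adjusted p = 5.2e-04). Here too the times were apart. In α7HMZ livers the Hp call ended without α7HMZ 13:30 replicate 1 or 2 or α7HMZ 20:30 replicate 1 (adjusted p 0.0589 to 0.106), and the Hpx call without α7HMZ 13:30 replicate 1, 2 or 3, α7HMZ 20:30 replicate 1 or 2 or WT 13:30 replicate 3 (adjusted p 0.0504 to 0.179). Both α7HMZ calls ended with the GC correction as well.

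All 3 orosomucoids were higher at 20:30 in both genotypes. Orm1 had in α7HMZ livers 599, 556 and 551 CPM at 20:30, against 310.4, 334 and 379 CPM at 13:30 (log2 fold change 0.74 ± 0.14, adjusted p = 0.0053). In WT livers Orm1 had 661, 781 and 763 CPM at 20:30, against 462, 410.5 and 371 CPM at 13:30 (log2 fold change 0.83 ± 0.14, adjusted p = 0.0011). The times did not overlap. Orm2 had in α7HMZ livers 35.2, 28.6 and 27.4 CPM at 20:30, against 14.4, 15.8 and 17.1 CPM at 13:30 (log2 fold change 0.95 ± 0.14, adjusted p = 5.0e-04). In WT livers Orm2 had 32.4, 32.7 and 34.3 CPM at 20:30, against 20.4, 18.1 and 14.5 CPM at 13:30 (log2 fold change 0.91 ± 0.14, adjusted p = 5.2e-04). Orm2 was likewise apart, as was Orm3 with the values given above (log2 fold change 2.16 ± 0.34 in α7HMZ and 1.66 ± 0.40 in WT livers, adjusted p = 8.0e-04 and 0.008).

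The complement genes C2, C3, C8b, C8g, C9, Cfb, Cfi, C4bp, Mbl1, Mbl2 and Serping1 were higher at 20:30 in WT livers, with log2 fold changes between 0.47 for C3 and 0.86 for C2. Crp, Itih3, Itih4, Serpina3n and Cp were also higher. With the GC correction C3, C8g, C9, Cfb, C4bp, Serping1, Crp, Itih3, Itih4 and Serpina3n were no longer called. Masp1 was the 1 lower member (log2 fold change -0.63 ± 0.20, adjusted p = 0.028), a call that ended without WT 13:30 replicate 2 or 3 or WT 20:30 replicate 1 or 2 (adjusted p 0.0651 to 0.117).

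All 21 members called in WT had a positive log2 fold change in α7HMZ livers, where 7 were called (C2, Hp, Hpx, Orm1, Orm2, Orm3 and Serpina3n). For 19 of the 21 the log2 fold change was larger in WT. The 21 were picked by their WT call, which favours large WT estimates, so this count does not show a genotype difference. The genotype by time test covers all fed times, so it does not address the change from 13:30 to 20:30 alone. With only the 13:30 and 20:30 livers in the fit, that test called 0 members, beside 52 of all genes. The lack of a call does not show that the changes were equal. Lcn2 was called in α7HMZ livers alone (log2 fold change 1.94 ± 0.44, adjusted p = 0.015), and the call ended without α7HMZ 13:30 replicate 2 or α7HMZ 20:30 replicate 1 (adjusted p 0.0945 to 0.127).

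**Figure D3:**
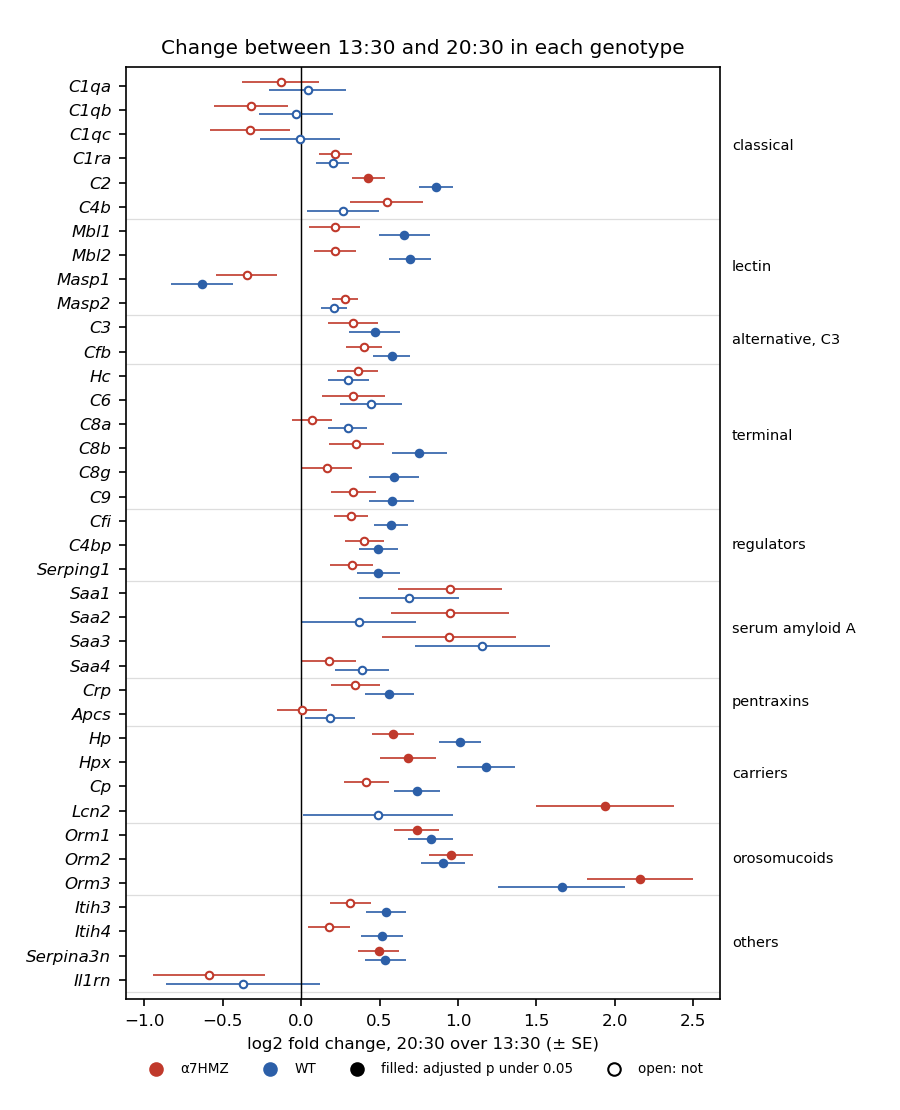
Log2 fold change (20:30 over 13:30) of 38 members in α7HMZ and WT livers; points are estimates, bars standard errors, filled points passed the test. Points lie right of 0 for 33 members in α7HMZ and 34 in WT livers, with Orm3 in α7HMZ livers at 2.16.

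The difference between genotypes changed with time for 1 of 38 members, C2, against 4.99% of all genes. The count was 5 without α7HMZ 10:30 replicate 1, the library with 50.8% Rn45s. The call then covered 1834 of all genes, against 665 with that library. It was 2 without α7HMZ 20:30 replicate 3 or WT 20:30 replicate 2 (400 and 698 of all genes). C2 had 92.1, 91.9 and 90.3 CPM in α7HMZ livers at 10:30, against 119.6, 130.0 and 132 CPM in WT livers. C2 at 13:30 measured 92.8, 97.1 and 105 CPM in α7HMZ livers, against 87.8, 82.9 and 81.4 CPM in WT livers. C2 at 20:30 measured 149, 135 and 114 CPM in α7HMZ livers, against 136, 173 and 149 CPM in WT livers. All α7HMZ values were below WT at 10:30 and above WT at 13:30, and the ranges overlapped at 20:30 (edgeR, genotype by time, adjusted p = 0.033). The log2 fold change was -0.48 ± 0.11 at 10:30 and 0.23 ± 0.11 at 13:30, a signed change of 0.70 ± 0.15. The call ended without α7HMZ 10:30 replicate 2, α7HMZ 13:30 replicate 1, 2 or 3, WT 10:30 replicate 1, 2 or 3 or WT 13:30 replicate 3, each in turn (adjusted p 0.0521 to 0.0789). The 10:30 and later livers were on different flow cells, and with 13:30 and 20:30 only the adjusted p was 0.232. DESeq2 called 5 members, beside 1584 of all genes. An unadjusted edgeR p under 0.05 was seen for 11 members, and the share of all genes under it was not counted.

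The 4 members next by p were not called. Itih3 had 690.2, 713 and 600.1 CPM in α7HMZ livers at 10:30, against 944, 975 and 1079 CPM in WT livers. Its 13:30 values were 597, 587 and 662 CPM in α7HMZ livers, against 560.1, 567 and 575 CPM in WT livers. Those at 20:30 were 877, 766 and 650.0 CPM in α7HMZ livers, against 743, 996 and 737 CPM in WT livers. It was lower in all α7HMZ livers at 10:30 and higher in all at 13:30 (adjusted p = 0.062). Masp1 had 60.7, 57.8 and 34.8 CPM in α7HMZ livers at 10:30, against 92.9, 90.0 and 93.7 CPM in WT livers. Livers taken at 13:30 had 64.6, 55.9 and 63.5 CPM (α7HMZ), against 60.4, 70.8 and 70.0 CPM (WT). Livers taken at 20:30 had 40.5, 41.9 and 62.2 CPM (α7HMZ), against 42.7, 33.1 and 53.1 CPM (WT). The α7HMZ values were below WT at 10:30 and overlapped later (adjusted p = 0.067).

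Itih4 had 1357, 1331 and 1114 CPM in α7HMZ livers at 10:30, against 1572, 1770.3 and 1935 CPM in WT livers. α7HMZ livers had 1224, 1288 and 1301 CPM at 13:30, against 1051, 1107 and 1114 CPM in WT livers. The α7HMZ values at 20:30 were 1735, 1274 and 1294 CPM, against 1398, 1758 and 1508 CPM in WT livers. Its order was that of Itih3 (adjusted p = 0.073). Hc had 704, 789 and 629 CPM in α7HMZ livers at 10:30, against 1100.4, 1154 and 1144 CPM in WT livers. By 13:30 there were 588, 573 and 623 CPM in α7HMZ livers, against 711, 624 and 613 CPM in WT livers. By 20:30 there were 935, 726 and 628 CPM in α7HMZ livers, against 774, 884 and 741 CPM in WT livers. The genotypes were apart at 10:30 (adjusted p = 0.074). Cfi and Cp shared the order of C2, below WT at 10:30 and above at 13:30, without passing the test (adjusted p = 0.33 and 0.23).

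**Figure D4:**
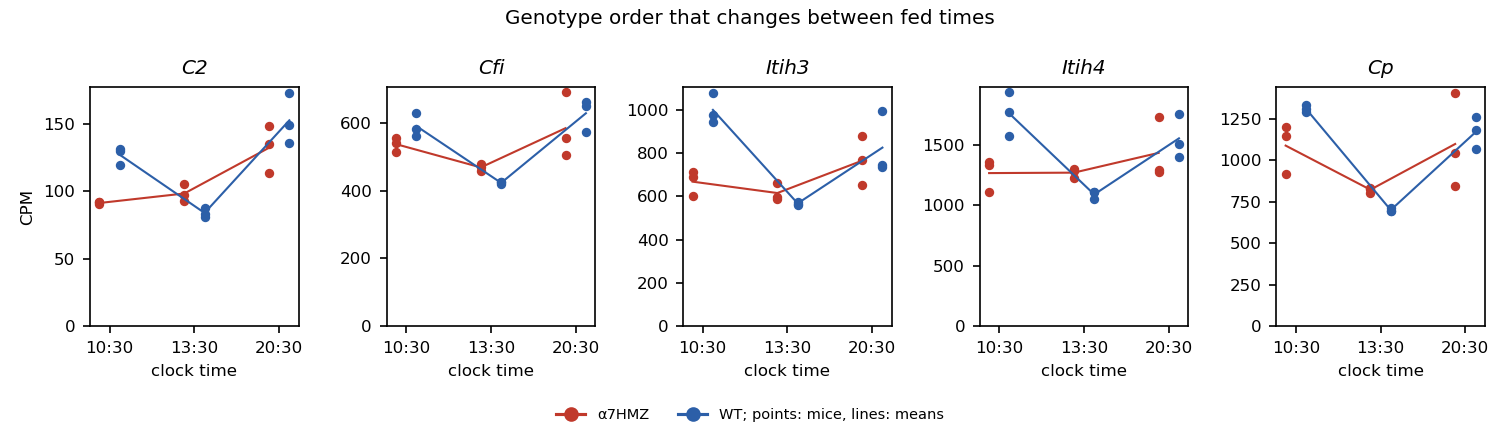
CPM of C2, Cfi, Itih3, Itih4 and Cp at the 3 fed times; points are mice and lines join group means, for α7HMZ and WT. The 5 genes are the members picked because α7HMZ points lie below WT at 10:30 and above WT at 13:30. Only C2 passed the genotype by time test, and the share of all genes with this order was not counted.

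Fasting was compared within a flow cell in WT livers at 10:30. After 12 h without food 2 of 38 members were higher and 8 lower, against 12% and 10.6% of 13103 genes, with a median log2 fold change of -0.288, against 0.004. The higher members were Il1rn and Hp. Il1rn had 4.9, 3.27 and 2.66 CPM in fasted WT livers, against 0.988, 1.05 and 1.06 CPM in fed WT livers (log2 fold change 1.80 ± 0.32, adjusted p = 0.0015). Hp had 4309.7, 3299 and 4629 CPM in fasted WT livers, against 2116, 2290.5 and 2347 CPM in fed WT livers (log2 fold change 0.85 ± 0.15, adjusted p = 0.0016). All fasted values of both genes were above the fed ones.

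C2, Hc, C8a, C9, C4bp, Masp1, Saa4 and Itih4 were lower. Saa4 had 136, 133 and 139 CPM in fasted WT livers, against 274, 251 and 276 CPM in fed WT livers (log2 fold change -0.98 ± 0.12, adjusted p = 1.6e-04). C9 had 220.1, 265 and 187 CPM in fasted WT livers, against 434, 429 and 468 CPM in fed WT livers (log2 fold change -0.99 ± 0.16, adjusted p = 7.0e-04). C2 had 76.8, 86.9 and 81.9 CPM in fasted WT livers, against 119.6, 130.0 and 132 CPM in fed WT livers (log2 fold change -0.64 ± 0.12, adjusted p = 0.0018). No fasted value of these 3 reached the fed range. The C8a call ended without fasted WT replicate 3 (adjusted p = 0.055), and that of Masp1 without α7HMZ 10:30 replicate 2, fasted α7HMZ replicate 1 or 2, WT 10:30 replicate 1, 2 or 3 or fasted WT replicate 2 or 3 (adjusted p 0.0508 to 0.12). The higher count was 4 without fasted α7HMZ replicate 2, which enters this fit only through the shared spread.

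The C1q chains, at log2 fold changes of -0.95, -1.01 and -1.04 in fasted WT livers, were not called (adjusted p = 0.092, 0.12 and 0.082). Markers of Kupffer cells, the liver macrophages (9 genes), summed to 187 to 271.5 CPM in fasted WT livers, against 395 to 509.2 CPM in fed WT livers. Neutrophil markers (9 genes) summed to 3.267 to 6.281 CPM in fasted WT livers, against 1.846 to 2.111 CPM in fed WT livers. Only 3 of them could be tested, and 2 were called higher. S100a9 was at 2.18, 1.19 and 1.33 CPM fasted, against 0.18, 0.123 and 0.0816 CPM fed. Csf3r was at 1.88, 1.25 and 2.07 CPM fasted, against 1.62, 1.48 and 1.55 CPM fed. In bulk tissue fewer cells of a type and less RNA per cell cannot be told apart, and the part of these cells was not tested.

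In fasted livers 5 members were higher and 10 lower in α7HMZ than in WT, against 6.9% and 8.65% of all genes, with a median of -0.041, against 0. The GC correction gave 6 and 7, with a median of 0.2, against 0.006. Counts over all genes with this correction are not given here. Genotype and flow cell cannot be told apart in this comparison. Hepatocyte markers, mostly Alb, summed to 84970 to 98350 CPM in fasted α7HMZ livers, against 138500 to 164100 CPM in fasted WT livers. Of the 7 tested, 2 were called lower and 0 higher, and the part of these markers was not tested. The higher count was 1 without fasted α7HMZ replicate 3 or fasted WT replicate 2 or 3, and 2 without α7HMZ 10:30 replicate 2 or any WT 10:30 replicate.

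C8g had 42.3, 48.1 and 42.5 CPM in fasted α7HMZ livers, against 277, 317 and 379 CPM in fasted WT livers (log2 fold change -2.88 ± 0.16, adjusted p = 8.3e-08). C4bp had 219.6, 197 and 208 CPM in fasted α7HMZ livers, against 380.1, 429.7 and 378 CPM in fasted WT livers (log2 fold change -0.93 ± 0.12, adjusted p = 1.5e-04). Saa4 had 68.7, 63.7 and 70.3 CPM in fasted α7HMZ livers, against 136, 133 and 139 CPM in fasted WT livers (log2 fold change -1.01 ± 0.13, adjusted p = 1.5e-04). All 3 were lower in every fasted α7HMZ liver. Masp2 had 139, 125 and 132 CPM in fasted α7HMZ livers, against 196, 199 and 220.0 CPM in fasted WT livers (log2 fold change -0.64 ± 0.10, adjusted p = 7.2e-04). Il1rn had 13.9, 11.4 and 14.5 CPM in fasted α7HMZ livers, against 4.9, 3.27 and 2.66 CPM in fasted WT livers (log2 fold change 1.87 ± 0.26, adjusted p = 4.1e-04). Masp2 was lower and Il1rn higher in every α7HMZ liver. C4b, C8a, C8g, C4bp, Masp2, Saa4, Crp and Serpina3n were thus lower at each fed time and fasted, and Orm3 and Il1rn higher at each fed time and fasted. The share of all genes with such repeated calls was not counted. The fasted C4b call ended without fasted α7HMZ replicate 1 or 2, WT 10:30 replicate 2 or fasted WT replicate 1, 2 or 3 (adjusted p 0.0532 to 0.112), and that of Orm3 without fasted α7HMZ replicate 3 or fasted WT replicate 2 or 3 (adjusted p 0.0724 to 0.12).

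Fasted α7HMZ replicate 3 stood apart. It had 48.5 CPM of Saa1, against 8.4 and 11.2 CPM in the other fasted α7HMZ livers and 12.7, 9.86 and 16.0 CPM in fasted WT livers. For Saa2 the values were 25.6 CPM, against 3.62 and 4.52 CPM and, in WT, 4.2, 2.5 and 5.12 CPM. For Lcn2 they were 20.0 CPM, against 4.62 and 3.57 CPM and, in WT, 7.37, 3.62 and 6.25 CPM. This liver held the highest value of Saa1, Saa2, Saa3 and Lcn2 in the series, and none of the 4 was called between fasted genotypes (adjusted p = 0.31, 0.11, 0.096 and 0.41).

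C1qa had 19.7, 21.1 and 72.9 CPM in fasted α7HMZ livers, against 18.9, 13.7 and 15.2 CPM in fasted WT livers (log2 fold change 1.24 ± 0.39, adjusted p = 0.045), the high value again in replicate 3. C1qb and C1qc were called too (1.39 ± 0.44 and 1.34 ± 0.41, adjusted p = 0.048 and 0.04). Without this liver the 3 log2 fold changes were 0.34, 0.355 and 0.416 (adjusted p = 0.222, 0.32 and 0.208). The C1qa call also ended without α7HMZ 10:30 replicate 2 or 3, WT 10:30 replicate 1, 2 or 3 or fasted WT replicate 1, 2 or 3, and those of C1qb and C1qc ended without 10 and 7 of the libraries, each in turn. Kupffer cell markers summed to 991 CPM in this liver, against 312.8 and 372.4 CPM in the other fasted α7HMZ livers, with 5 of 9 called higher between fasted genotypes. Neutrophil markers (9 genes, Mmp8 at 0 there) summed to 12.69 CPM in this liver, the highest of the 24 libraries, against 2.73 and 4.559 CPM in the other fasted α7HMZ livers and 3.267 to 6.281 CPM in fasted WT livers. Of the 12.69 CPM, 6.87 CPM was Csf3r. S100a8 and S100a9 were at 2.08 and 1.85 CPM in this liver, against 1.78 and 2.18 CPM in fasted WT replicate 1. T and B cell markers (6 genes) summed to 5.365 CPM, against 2.52 and 3.533 CPM in the other fasted α7HMZ livers. The part of these cells in the C1q, Lcn2 and Saa3 values was not tested.

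α7HMZ 20:30 replicate 1 stood apart in the fed groups. It had 16.5 CPM of Lcn2, against 2.8 and 5.81 CPM in the other 20:30 α7HMZ livers. For Saa3 it had 6.46 CPM, against 1.5 and 1.75 CPM, and for C4b 793 CPM, against 325 and 351 CPM. Its level of each was the highest of its group. T and B cell markers summed to 6.419 CPM there, the highest of the 24 libraries, against 0.872 and 2.031 CPM in the other 20:30 α7HMZ livers. Neutrophil markers summed to 2.99 CPM (Mpo, Ngp and Retnlg at 0), of which 2.19 CPM was Csf3r, against 1.371 and 1.692 CPM. Adipocyte markers (6 genes) summed to 13.36 CPM, against 8.288 and 9.195 CPM, and Kupffer cell markers to 442.6 CPM, against 228.4 and 433.1 CPM. Their part was not tested.

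**Figure D5:**
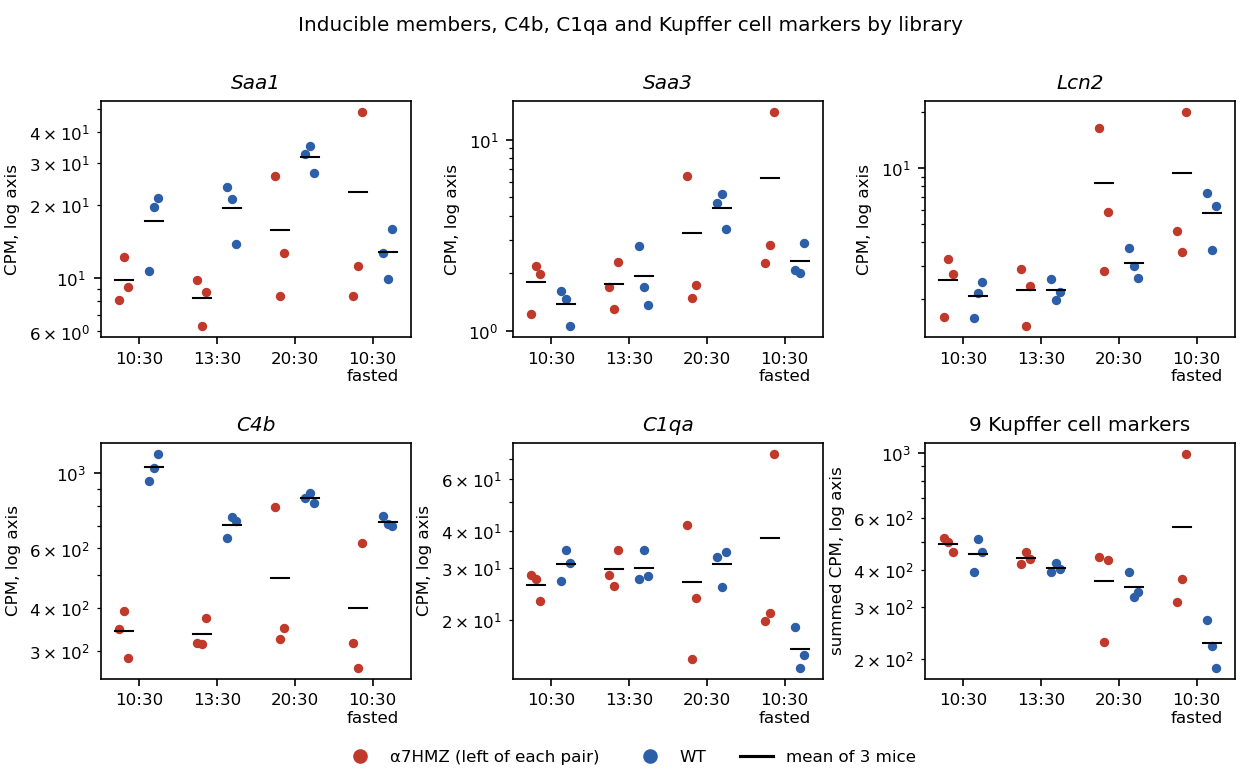
CPM of Saa1, Saa3, Lcn2, C4b and C1qa and the summed CPM of 9 Kupffer cell markers in each library on log axes; points are mice, bars means, α7HMZ left of WT. Fasted α7HMZ replicate 3 is the highest library in every panel but C4b, and α7HMZ 20:30 replicate 1 is the highest of its group.

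Other genes of the same systems were read for context. Of 22 other complement genes tested, 5 were lower and none higher in fed α7HMZ livers on average, beside 13.2% lower and 13.3% higher over all genes. Among them were C4a, the similar copy of C4b (log2 fold change -1.42 ± 0.14, adjusted p = 3.9e-07), C1rl, a C1r-like protease (log2 fold change -0.52 ± 0.05, adjusted p = 4.8e-07), and Cpn2, a subunit of the carboxypeptidase that inactivates anaphylatoxins (log2 fold change -0.45 ± 0.07, adjusted p = 5.3e-05). Of 24 other genes listed here as positive acute phase genes, 12 were lower, and 3 were higher, a share near that of all genes. Ifitm3, an interferon-induced membrane protein, was lower (log2 fold change -0.91 ± 0.10, adjusted p = 1.9e-06), while Vnn1, a pantetheinase, and Lbp, which binds lipopolysaccharide, were higher (1.26 ± 0.16 and 0.65 ± 0.09, adjusted p = 7.1e-06 and 1.8e-05).

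Of 8 negative acute phase genes, whose mRNA falls in inflammation, 5 were lower and 1 higher, against the same 13.2% and 13.3% of all genes. Alb, Ttr and Apoa1 of this list, and Serpina1c of the positive list, are also hepatocyte markers here, so the counts share genes. Trf (transferrin), Rbp4 (retinol-binding protein) and Igf1 were lower (-0.92 ± 0.10, -0.35 ± 0.08 and -0.27 ± 0.06, adjusted p = 1.2e-06, 0.0018 and 0.003). Of 21 genes of cytokine signalling to the acute phase, 5 were lower and 2 higher, the higher share below that of all genes. Il1rap and Il1r1, the subunits of the interleukin 1 receptor, were lower (-0.64 ± 0.06 and -0.89 ± 0.11, adjusted p = 3.7e-07 and 6.5e-06), and Socs3, an inhibitor of interleukin 6 signalling, was higher (log2 fold change 0.87 ± 0.19, adjusted p = 0.0021).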

How the data were processed

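Per the study's methods and the submitters' processing notes, reads were aligned to mm10 (TopHat2 2.1.1) and counted with HTSeq 0.6.1. The authors deposited raw counts for 23411 genes, which were used as deposited. Their normalized values for single libraries were not used. Groups came from the labels. Counts were fitted with edgeR 4.0.16 in R 4.3.3 (filterByExpr, TMM, quasi-likelihood test, p adjusted by Benjamini-Hochberg, threshold 0.05): the 18 fed libraries together and the 12 libraries at 10:30 together. P-values weigh each difference against the spread between these mice, pooled over all groups of a fit and drawn towards that of other genes. A call can therefore end when a library outside the groups compared is left out. The members and lists were chosen with earlier results of these data known. Values in every library are given for the 10 called members with the smallest p in the fed average, the 5 with the smallest p by genotype and time, up to 5 called in each other comparison, and Saa1, Saa2, Saa3 and Lcn2. Of each context list, the 3 genes with the smallest p in the fed average are named.

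Alternatives were other scaling factors, loess on GC content (98.5% of genes had a value) with full quantile offsets, DESeq2 1.42.0, other filters (none, or 50 counts in 3 libraries), other sets of libraries in the fit, a replicate block, a 1.2-fold threshold, and libraries left out. The fits were tested on simulated data.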

Additional observations from a re-analysis of the deposited data

Results flagged for a closer look

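C2 was picked out because the difference between α7HMZ and WT livers changed with time of day (edgeR, adjusted p = 0.0334). Its log2 fold change was -0.48 at 10:30, 0.23 at 13:30 and -0.20 at 20:30. The 10:30 livers were on another flow cell than the later ones.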

How the results depend on the processing

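Of 135 calls of single members, 71 ended under no alternative, and 3330 of 3741 alternatives kept the call and its direction. Counts below are of members, higher then lower. Counts over all genes are given for some settings only. The cause of each change was not tested. With the GC correction they were 7 and 12 in the fed average, 4 and 9 at 10:30, 7 higher at 13:30, 9 lower at 20:30, and 5 (α7HMZ) and 11 (WT) higher at 20:30 against 13:30. It reversed C1ra (0.0251), Hc (0.0192), Cfi (0.26), Itih4 (0.303) and Cp (0.261) in the fed average, and Cfb (0.118) and Serping1 (0.0145) at 20:30. A 1.2-fold threshold gave 12 lower in the fed average (809 of all genes), and 2 higher and 8 lower at 20:30 (478 and 658). At 20:30 against 13:30 it gave 4 higher in α7HMZ (192 of all genes) and 12 higher and 0 lower in WT (554 and 599). Between fasted genotypes it gave 2 higher (454 of all genes). Fitting only the groups compared gave 1 higher and 9 lower at 20:30 (739 and 809 of all genes). In α7HMZ at 20:30 against 13:30 that fit gave 3 higher (275 of all genes). It gave 4 higher and 14 lower in fasted WT (1829 and 1806 of all genes) and 1 higher between fasted genotypes (572). All 24 libraries in 1 fit gave 3 higher at 20:30 (1002 of all genes) and 0 lower in WT at 20:30 against 13:30 (1230). Leaving out the 4 libraries highest in Rn45s, the bile duct gene Krt19 or the pancreatic gene Ctrb1 left 1 α7HMZ liver at 20:30. Counts from that fit are not given. The log2 fold change of Lcn2 at 20:30 then reversed (-0.173). By genotype and time DESeq2 gave 5 (1584 of all genes), and 13:30 and 20:30 only gave 0 (52 of all genes). With 1 library left out the counts were 4 to 5 and 18 to 22 in the fed average, 2 to 3 and 14 to 19 at 10:30, 3 to 4 and 8 to 12 at 13:30, 1 to 5 and 8 to 21 at 20:30, 0 to 5 by genotype and time, 3 to 13 and 0 in α7HMZ and 16 to 22 and 0 to 1 in WT at 20:30 against 13:30, 2 to 4 and 7 to 12 in fasted WT, and 1 to 7 and 8 to 12 between fasted genotypes. Replicate numbers did not pair the mice (mean correlation of deviations -0.016 for the same number, 0.008 for different ones; 9 of 24 libraries correlated best with their own number). The replicate block gave 4 and 19 in the fed average and 2 higher between fasted genotypes, ended 8 calls of single members and began 2.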

Other observations

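In fasted WT livers, 6 of the 24 other genes listed here as positive acute phase genes were higher than in fed WT livers. Of the same list 4 were lower, against 12% higher and 10.6% lower over all genes. Vnn1, a pantetheinase, was at 3.39 ± 0.24, and Mt2, a metallothionein, was at 4.49 ± 0.79 (log2 fold change, edgeR adjusted p = 2.6e-06 and 0.0015). Of 20 cytokine signalling genes 5 were higher and 5 lower, beside the same shares of all genes. Cebpd and Cebpb, transcription factors of the acute phase, and Socs3 were higher (1.39 ± 0.30, 1.13 ± 0.30 and 1.29 ± 0.33, adjusted p = 0.0059, 0.016 and 0.013). Osmr, Lifr and Il6st, receptor chains for cytokines of the interleukin 6 family, were lower (-0.92 ± 0.20, -1.34 ± 0.33 and -0.95 ± 0.24, adjusted p = 0.0057, 0.011 and 0.014). These genes were named after their values were seen.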
